A study of Homo sapiens with 16 samples.

Results

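The subject is the difference between 2 stocks of MCF10A cells in their response to TGF-β1, measured gene by gene with RNA sequencing. MCF10A is an established, non-tumorigenic human mammary epithelial line. The PHF8 stock overexpressed PHF8 and the Mock stock carried an empty vector. Only 1 stock of either kind is named in the labels. Both stocks grew in the same medium with serum, EGF, insulin, hydrocortisone and cholera toxin. TGF-β1 was given at 5 ng/ml. The groups were PHF8 cells without TGF-β1 and with 24, 48 or 72 h of it, and Mock cells at the same 4 conditions. Each of the 8 groups had 2 libraries, 16 in all, and replicate 1 came from the first and replicate 2 from the second round of sequencing. The labels do not say whether replicates were separate cultures, so p-values reflect only how far these libraries scatter, a scatter that may be technical and in which the rounds take part. For every gene, the Mock change at a given time (treated minus untreated, log2) was subtracted from the PHF8 change of the same round. This gave 6 values per gene, 1 for each of 3 times in each of 2 rounds. A positive value means a larger rise or a smaller fall in PHF8 cells than in Mock cells. Genes entered with a log2 level of 3.33 or more in at least 2 libraries, about 10 normalised reads, which held for 13564 of 23368 entries. The second-highest level was 3.3265 in LOC100499227 and 3.3271 in NRG4, just outside this limit, and 3.3301 to 3.332 in the 3 just inside (GAL3ST4, ZNF80 and BMP4).

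TGF-β1 binds a pair of serine/threonine kinase receptors that phosphorylate SMAD2 and SMAD3. These enter the nucleus with SMAD4 and switch on direct targets, among them the inhibitor SMAD7, which closes a negative loop. In mammary epithelial cells the pathway is known for the epithelial-mesenchymal transition (EMT), in which the SNAI and ZEB repressors lower E-cadherin and cells gain N-cadherin, vimentin and fibronectin. PHF8 is a histone demethylase of the JmjC family that removes repressive methyl marks from histone tails. The comparison of responses asks whether cells with more PHF8 change by the same amount as their control when TGF-β1 is added.

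Linear sums of the deposited values were 18.8 M to 21.2 M per library, and the number of reads behind a value is unknown. The first principal component held 48% of the variance, the second 19.8% and the third 12.3%. Of the basal mammary markers all 12 were measured, and KRT5 (14.35 to 15.64) and TP63 (9.38 to 11.57) were high in all 16 libraries. PGR, TFF1, TFF3 and CSN3 of the luminal list, and CD3E and HBB of the endothelial and blood list, were listed at 0 in every library. Other members of both lists were not. The luminal KRT8 had 11.74 to 12.92, KRT18 11.69 to 12.93 and XBP1 10.72 to 11.65. On the endothelial and blood list CD14 had 5.755 to 9.635 and KDR 4.346 to 6.83. PHF8 itself had levels of 14.47, 14.52, 14.65 and 14.73 in the round 1 PHF8 libraries and 13.64, 13.69, 13.97 and 14.23 in round 2, in order of time. In the Mock libraries it had 9.65, 9.33, 9.34 and 9.26 in round 1 and 9.61, 9.72, 9.48 and 9.54 in round 2. The stocks did not overlap. The difference of response of PHF8 was 0.43 ± 0.38 (log2, SE, mean over 3 times, n = 2 rounds) and was not called (limma, adjusted p = 0.9999). With 1 stock of each kind, the PHF8 level cannot be told apart from any other difference between the stocks. In bulk RNA, fewer cells of a type and less RNA per cell cannot be told apart.

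Both stocks responded strongly to TGF-β1. At 72 h, 708 genes rose and 565 fell in PHF8 cells, and 1124 rose and 824 fell in Mock cells, by limma with 1 mean per group and Benjamini-Hochberg adjusted p under 0.05. The calls were 9.39% of genes tested in PHF8 cells (5.22% up and 4.17% down) and 14.4% in Mock cells (8.29% up and 6.07% down), and a lower count does not itself show a smaller response. FN1, the fibronectin gene, rose by 5.02 in PHF8 cells and by 5.14 in Mock cells (log2, 72 h).

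Among the 31 genes called in 1 of the fits, CDH2 rose less in PHF8 cells (N-cadherin, a difference of -0.83 ± 0.088, log2, SE, n = 2 rounds). So did FBN1 (-0.64 ± 0.080) and TGM2 (-0.75 ± 0.097, with -0.59 in round 1 and -0.91 in round 2). The basal keratin gene KRT15 fell less in PHF8 cells (1.68 ± 0.193). These genes were called only in a fit with all terms for the sequencing round, described next, and not in the fit with 1 mean per group. With 1 mean per group, limma called 0 of 13564 genes at 24, 48 or 72 h, in the mean over the 3 times and in the joint test of the 3 times, so that percent called was 0 in each. At an unadjusted p under 0.05 this fit had 85 genes at 24 h, 124 at 48 h, 131 at 72 h, 163 in the mean and 60 in the joint test. Of the genes tested, 5% would be 678.2. The scatter between rounds stays in the residual of this fit. With all round terms the same counts were 837, 1308, 1330, 1385 (10.2%) and 1033. In the mean there were 444 with only a block for the round. A block for the sequencing round also gave 0 calls in all 5 tests, and so did a round-by-stock term in addition. Only with round-by-time terms as well were genes called. That fit judges each difference by how far the 2 rounds disagree about it, with 3 residual degrees of freedom. It called 2 genes at 24 h (0.0147% of those tested), 5 at 48 h (0.0369%, 0.0147% higher in PHF8 and 0.0221% lower), 7 at 72 h (0.0516%, 0.0295% higher and 0.0221% lower), 4 in the joint test (0.0295%) and 31 in the mean over times (0.229%). The 31 genes were 9 with a higher response in PHF8 cells (0.0664% of genes tested) and 22 with a lower one (0.162%), and they held every gene called in the other 4 tests. Of them 18 had an adjusted p of 0.04 or more, and under 24 settings with 1 mean per group or fewer round terms the lowest adjusted p of any of the 31 was 0.072 (CA2) and the highest 1. The same fit without the mean-variance trend called 0 genes, and with the libraries centred on their medians it called 11 in the mean.

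Those 11 genes were VSTM2L, CA2, CDH2, KRT15, FBN1, COBL, BIRC3, TGM2, MAP1B, OPN3 and GBP2. They were also called with quantile normalisation and with either other filter on low values. Leaving out single libraries mattered more. Without either untreated round 1 library, PHF8 or Mock, the mean over times called 0 genes. Without an untreated round 2 library it called 11 (PHF8) or 10 (Mock), of which 4 in each were among the 31. Without a 48 or 72 h library it called 6 to 13, and without a 24 h library 66 to 94, including all 31. Over the 16 fits that left out 1 library, the mean difference ran from 1.409 to 1.787 in CA2 and from -1.137 to -1.015 in VSTM2L. It ran from -0.878 to -0.785 in CDH2, 1.583 to 1.774 in KRT15, 1.21 to 1.37 in COBL and 0.575 to 1.051 in BIRC3. With all round terms, leaving out the PHF8 or the Mock library of the same time and round removes the same comparison. The 16 fits are therefore pairs of near copies, not separate checks. Without an untreated library the differences rest on the other round alone.

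**Figure D1:**
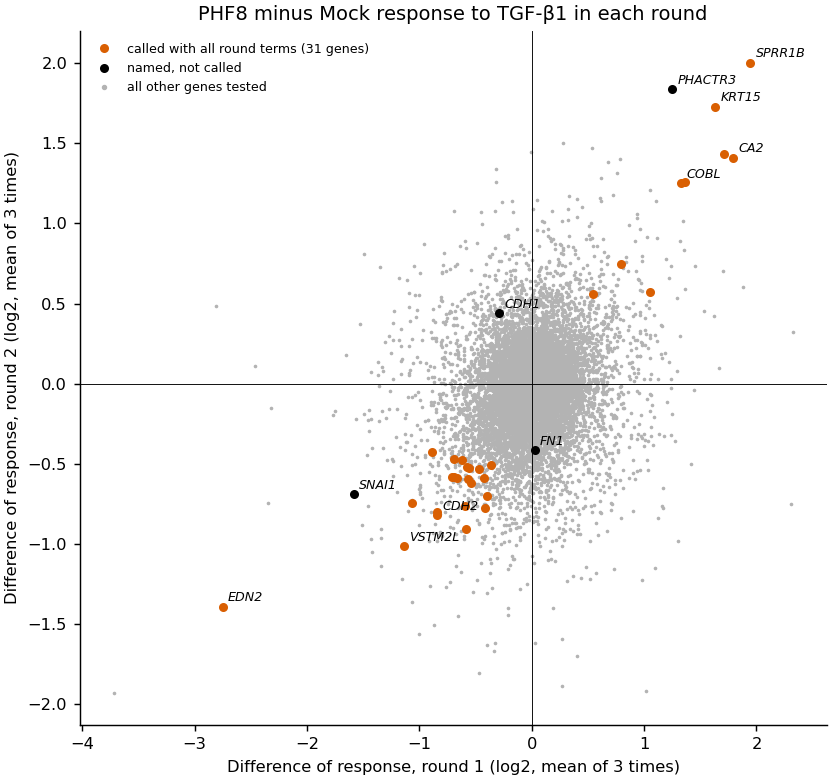
Each point is a gene, with the difference of response (PHF8 minus Mock, log2, mean of 24, 48 and 72 h) in round 1 on the horizontal and in round 2 on the vertical axis. Orange points are the 31 genes called with all round terms, black points are named genes that were not called, and the cloud of 13564 genes is nearly round (Pearson r = 0.203 across genes). EDN2 is among the 31 genes, although only its untreated levels of round 1 reached the limit for entering the test.

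The rounds agreed weakly across all genes. Their differences of response had Pearson r = 0.104 and Spearman rho = 0.078 at 24 h, 0.144 and 0.151 at 48 h, 0.195 and 0.185 at 72 h, and 0.203 and 0.185 in the mean, as descriptions across 13564 genes that are not independent and share depth and library within a round. The 2 rounds gave the same sign for 52.6% of genes at 24 h and for 57% at 72 h. In the mean, 10 genes were 2-fold or more higher in PHF8 in both rounds, 8 were 2-fold or more lower in both, and 2 were past 2-fold with opposite signs. All 6 values had the same sign in 2613 genes (19.3%), 1167 positive and 1446 negative.

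CDH2, which encodes N-cadherin, the cadherin gained in EMT, had levels of 10.06 and 9.28 in untreated PHF8 cells, 10.66 and 10.00 at 24 h, 10.92 and 10.42 at 48 h and 11.04 and 10.59 at 72 h (log2, round 1 and then round 2). In Mock cells CDH2 had 9.11 and 8.59 untreated, 10.71 and 10.08 at 24 h, 10.74 and 10.54 at 48 h and 10.85 and 10.77 at 72 h. Untreated PHF8 cells were higher in both rounds, while the treated stocks overlapped. The mean difference of response of CDH2 was -0.83 ± 0.088 (SE with all round terms, n = 2 rounds), -0.84 in round 1 and -0.82 in round 2, with adjusted p = 0.00602 in limma with all round terms and 0.9999 with 1 mean per group, where the SE was 0.37. The gap between stocks, PHF8 minus Mock, was 0.11 and -0.13 with TGF-β1 and 0.95 and 0.69 without it. The promoter of CDH2 is shown because it is the classical mesenchymal gene among those called. It lies at chr18:28177081-28177380 on the minus strand of GRCh38.p14 (RefSeq), from 250 bases before to 50 after the start, and is printed in the direction of transcription with matches to the SMAD element CAGAC, on either strand, in capitals.
CDH2: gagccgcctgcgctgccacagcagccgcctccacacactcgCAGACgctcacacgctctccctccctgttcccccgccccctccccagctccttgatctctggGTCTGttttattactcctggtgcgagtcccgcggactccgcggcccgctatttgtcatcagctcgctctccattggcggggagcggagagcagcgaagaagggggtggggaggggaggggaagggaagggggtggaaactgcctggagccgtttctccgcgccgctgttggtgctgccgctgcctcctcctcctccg
The 2 matches begin at -209 and -147 from the start. No match to the E-box CACCTG, on either strand, or to the AP-1 site TGANTCA was in this window.

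VSTM2L, an immunoglobulin-domain protein gene, gave the smallest adjusted p of all genes in the mean over times with all round terms. Its levels in PHF8 cells were 10.04 and 8.65 untreated, 10.11 and 9.48 at 24 h, 9.94 and 9.87 at 48 h and 10.10 and 9.73 at 72 h. In Mock cells VSTM2L had 8.65 and 7.88 untreated, 9.71 and 9.68 at 24 h, 9.75 and 10.06 at 48 h and 9.95 and 10.08 at 72 h. In round 1 the PHF8 level was nearly flat while the Mock level was higher at every treated time than untreated. The mean difference of VSTM2L was -1.08 ± 0.093 (-1.14 in round 1 and -1.02 in round 2, adjusted p = 0.0023 with all round terms and 0.9999 without).

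Matrix genes were among the 22 with a lower response in PHF8. TGM2, tissue transglutaminase, differed by -0.75 ± 0.097 (adjusted p = 0.0164). FBN1, the microfibril protein fibrillin-1, differed by -0.64 ± 0.080 (adjusted p = 0.0147), and SERPINE2, a serine protease inhibitor, by -0.55 ± 0.088 (adjusted p = 0.0488). MAP1B, a microtubule-associated protein, had 11.85 to 12.06 in treated PHF8 cells and 10.99 and 10.20 in untreated ones, against 11.935 to 12.27 in treated and 10.50 and 9.86 in untreated Mock cells. Untreated PHF8 cells were higher in both rounds and the treated stocks overlapped, with a difference of response of -0.55 (adjusted p = 0.0167). OPN3, an opsin, differed by -0.58 (adjusted p = 0.026). GBP2, an interferon-inducible guanylate-binding protein, differed by -0.82 (adjusted p = 0.0336) and DKK1, a secreted WNT inhibitor, by -0.66 (adjusted p = 0.0472). With 1 mean per group, the difference changed sign without the untreated PHF8 library of round 1 in FBN1 (0.33), SERPINE2 (0.19) and DKK1 (0.54). Without the untreated Mock library of round 2 it did so in FBN1 (0.0228), DKK1 (0.0154) and KCNJ15 (0.06004). With all round terms and 1 library left out, these 4 genes stayed negative. The difference ran from -0.69 to -0.58 in FBN1, -0.62 to -0.48 in SERPINE2, -0.89 to -0.42 in DKK1 and -0.62 to -0.54 in KCNJ15. Also lower were EDN2, FSTL1, KCNJ15, CCDC71L, ANPEP, H6PD, TSPAN5, HSD17B2, CCBE1, SH2D2A, NRCAM and ATP1B1.

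EDN2, which encodes the vasoconstrictor peptide endothelin-2, reached the limit for entering the test only in the untreated libraries of round 1. It had 1.57 to 3.09 in treated PHF8 cells and 7.76 and 2.90 in untreated ones, against 1.53 to 1.82 in treated and 3.64 and 1.54 in untreated Mock cells. Its treated levels and all its round 2 levels lay below that limit, so its difference of response is not given. EDN2 stays in the counts of called genes, including those by direction and by gap between stocks, but is not read as support for them. With 1 mean per group, its difference changed sign without the untreated PHF8 library of round 1, the one with the level of 7.76.

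**Figure D2:**
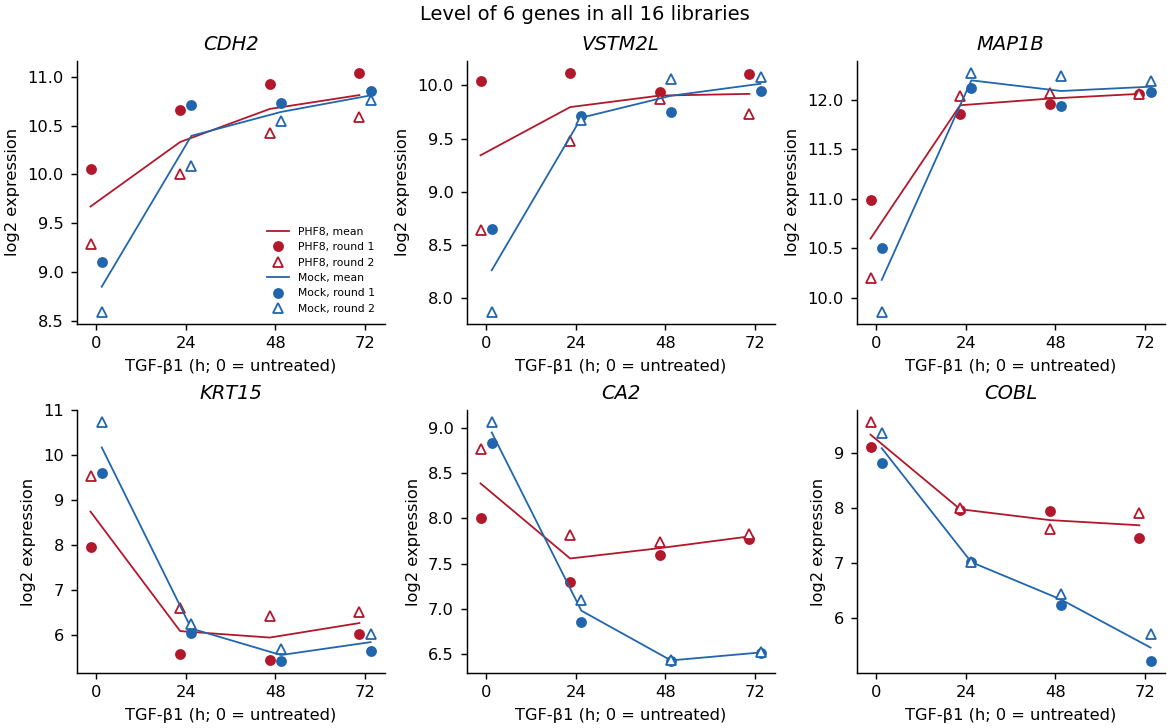
Log2 level of 6 genes against hours of TGF-β1 (0 is untreated) in PHF8 cells (red) and Mock cells (blue), with round 1 as filled circles, round 2 as open triangles and lines through the means. In CDH2, VSTM2L and MAP1B the stocks are apart at 0 h and close later, in KRT15 they are apart at 0 h in the other direction, and in CA2 and COBL they are apart under treatment.

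Among the 9 genes with a higher response in PHF8, all had a negative response in Mock cells at 72 h. CA2, carbonic anhydrase 2, had 8.01 and 8.77 in untreated PHF8 cells, 7.29 and 7.82 at 24 h, 7.6 and 7.74 at 48 h and 7.77 and 7.83 at 72 h. In Mock cells CA2 had 8.84 and 9.07 untreated, 6.86 and 7.10 at 24 h, 6.42 and 6.43 at 48 h and 6.51 and 6.52 at 72 h. PHF8 cells were lower than Mock cells untreated and higher at all 3 treated times, in both rounds. In PHF8 cells CA2 fell at 24 h (-0.83, adjusted p = 0.0478 in limma with 1 mean per group), with -0.72 at 48 h (adjusted p = 0.0784) and -0.59 at 72 h (adjusted p = 0.166). In Mock cells it fell at all 3 times (-1.97, -2.52 and -2.43, the last with adjusted p = 0.00015). The mean difference of response of CA2 was 1.60 ± 0.158 with all round terms (1.79 in round 1 and 1.41 in round 2, adjusted p = 0.00442) and 1.60 ± 0.279 with 1 mean per group (unadjusted p = 0.000123, adjusted p = 0.9999). Its adjusted p was 0.139 with the round block and 0.072 with a round-by-stock term.

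COBL, an actin nucleator, had 9.10 and 9.55 in untreated PHF8 cells, 7.96 and 8.00 at 24 h, 7.94 and 7.62 at 48 h and 7.46 and 7.91 at 72 h. In Mock cells COBL had 8.81 and 9.35 untreated, 7.01 and 7.03 at 24 h, 6.25 and 6.44 at 48 h and 5.23 and 5.71 at 72 h. It fell in both stocks, by 1.64 in PHF8 cells (adjusted p = 0.0027) and by 3.61 in Mock cells at 72 h. The difference of response of COBL was 0.71 at 24 h, 1.19 at 48 h and 1.97 at 72 h, and the 6 values ran from 0.65 to 2.00. Its adjusted p with all round terms was 0.0147 in the mean.

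BIRC3, an inhibitor of apoptosis and a target of NF-kB, had 11.60 and 11.45 in PHF8 cells at 72 h and 12.82 and 12.90 in untreated ones, against 9.71 and 10.30 at 72 h and 12.18 and 12.48 untreated in Mock cells. BIRC3 fell by 1.33 in PHF8 cells (adjusted p = 0.0043) and by 2.33 in Mock cells. The mean difference of BIRC3 was 0.81 ± 0.103 (1.05 in round 1 and 0.57 in round 2, adjusted p = 0.0148 with all round terms). Its promoter stands here beside that of CDH2 as a called gene of the other direction, at chr11:102317234-102317533 on the plus strand of GRCh38.p14 (RefSeq), with the E-box match in capitals.
BIRC3: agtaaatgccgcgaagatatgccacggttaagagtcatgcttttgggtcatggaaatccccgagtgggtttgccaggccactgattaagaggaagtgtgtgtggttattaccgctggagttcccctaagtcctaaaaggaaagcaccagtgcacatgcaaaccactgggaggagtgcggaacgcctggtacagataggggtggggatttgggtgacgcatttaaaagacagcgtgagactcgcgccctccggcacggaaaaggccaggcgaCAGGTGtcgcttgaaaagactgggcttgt
The match begins 21 bases after the start, and no SMAD element or AP-1 site was found. Of the 31 called genes 20 had a promoter of this length in the RefSeq table. An E-box was in 30.0% of those 20, in 18.2% of 9362 genes tested and in 20.6% of all 27305 promoters. A SMAD element was in 35.0% of the 20, in 42.8% of genes tested and in 45.0% of all, and an AP-1 site in 15.0%, 4.86% and 7.76% of the same sets. A match is a description of letters, not of a bound site.

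KRT15, a basal keratin, had 7.96 and 9.53 in untreated PHF8 cells, 5.58 and 6.61 at 24 h, 5.46 and 6.44 at 48 h and 6.04 and 6.51 at 72 h. In Mock cells KRT15 had 9.61 and 10.74 untreated, 6.04 and 6.26 at 24 h, 5.43 and 5.69 at 48 h and 5.66 and 6.04 at 72 h. It fell in both stocks at 72 h, by 2.47 in PHF8 cells (adjusted p = 0.0168) and by 4.33 in Mock cells (adjusted p = 0.0006). The difference of 1.68 ± 0.193 (1.63 in round 1 and 1.73 in round 2, adjusted p = 0.0101 with all round terms) came with a gap between stocks of -0.02 and 0.52 under TGF-β1 and of -1.65 and -1.20 without it.

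SPRR1B, a cornified envelope precursor, had 2.41 to 5.40 in treated PHF8 cells and 2.77 and 7.03 in untreated ones, against 2.62 to 3.54 in treated and 4.97 and 7.62 in untreated Mock cells. Its mean difference was 1.95 in round 1 and 2.00 in round 2, and its adjusted p with all round terms was 0.04999, just inside the threshold. Without the untreated PHF8 library of round 1 and with 1 mean per group, the difference of SPRR1B was -0.15. With all round terms and 1 library left out, it ran from 1.75 to 2.20. In round 1 all treated levels of SPRR1B lay below the limit for entering the test. SERPINB13, a serpin of stratified epithelia, had 3.81 and 5.88 in untreated PHF8 cells and 6.28 and 6.72 in untreated Mock cells. Its treated levels were 2.19 to 3.58 in PHF8 and 2.43 to 3.45 in Mock cells, mostly below the limit for entering the test. Its difference of 1.57 therefore rests mainly on the untreated levels, with a mean gap of -1.65 untreated and -0.08 with TGF-β1. FRAS1, an extracellular matrix protein of the basement membrane zone, differed by 1.31. TMEM56 differed by 0.77, and TBC1D4, a RAB GTPase-activating protein, by 0.55.

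A difference of response equals the gap between stocks under TGF-β1 minus the gap without it, so the untreated pair of a round enters all 3 of its values. In 23 of the 31 called genes the gap was larger without TGF-β1 than with it, and in 8 it was larger with it. By direction, it was larger untreated in 20 of the 22 genes with a lower response and in 3 of the 9 with a higher one (KRT15, SERPINB13 and SPRR1B). It was larger under treatment in CA2, COBL, BIRC3, FRAS1, TMEM56 and TBC1D4, and in KCNJ15 and ATP1B1 of the lower genes. Of all 13564 genes, 61.7% had the larger gap untreated. The gap with TGF-β1 is a mean over 3 times in each round, while the untreated gap is not averaged over times. The less averaged gap tends to be larger through scatter between libraries. These counts therefore cannot show that the stocks truly differed more without TGF-β1 than with it. The untreated gap had the same sign in both rounds in 28 of the 31 genes and in 60.4% of all genes. EDN2 is counted among the 23 and the 28, although most of its levels lay below the limit for entering the test. At 72 h the response was smaller in PHF8 than in Mock cells in 29 of the 31, GBP2 and EDN2 being the exceptions, and in 58.7% of all genes. Since all these values come from the libraries that gave the calls, they describe the called genes and test nothing.

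**Figure D3:**
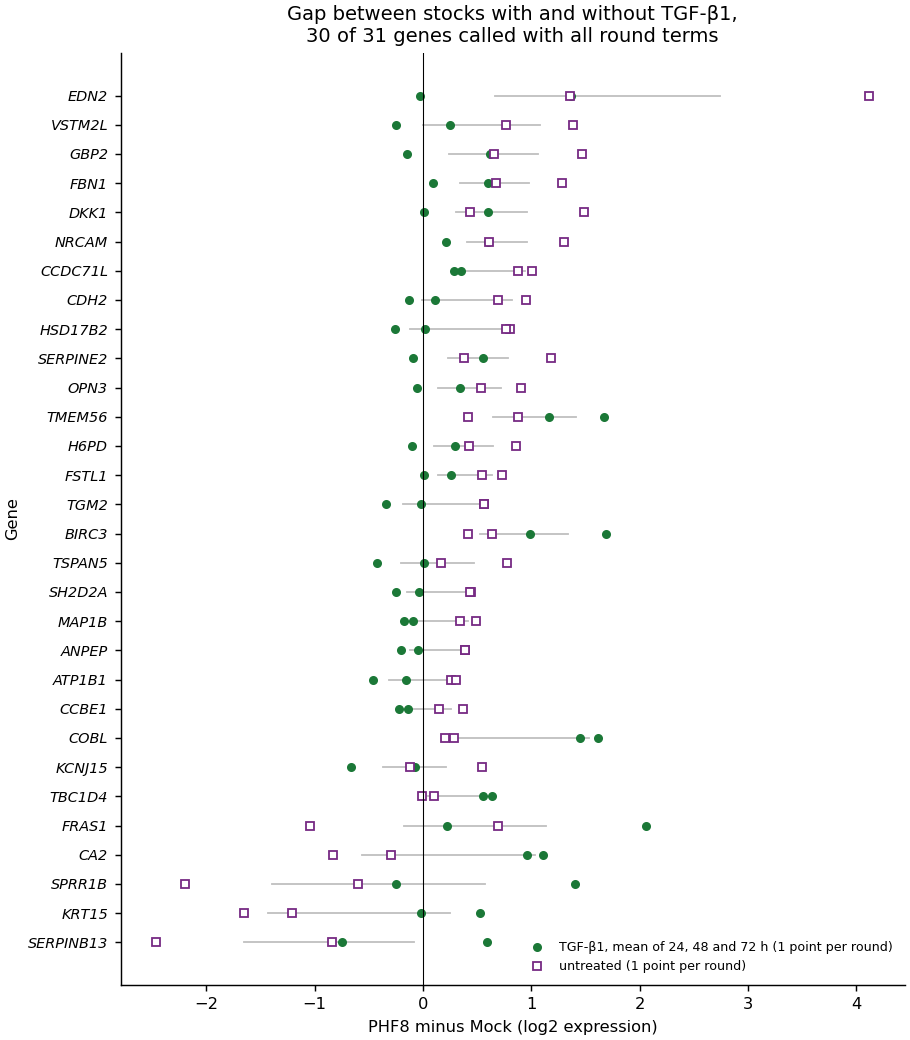
The gap between stocks (PHF8 minus Mock, log2) of 30 of the 31 called genes under TGF-β1 (filled circles, mean of 24, 48 and 72 h) and untreated (open squares), with 1 point per round and a line between the means. For most genes the open squares lie farther from 0 than the filled circles, while CA2, COBL and BIRC3 lie farther from 0 under treatment. The open squares are not averaged over times, and scatter alone can place them farther from 0.

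Whether responses as a whole were smaller in PHF8 cells was read from genes chosen in 1 round and measured in the other, which share no library. Genes 2-fold or more up in Mock cells at 72 h in round 1 numbered 598, and in round 2 their median rise was 1.34 in PHF8 cells and 1.63 in Mock cells, with 76.6% rising less in PHF8. Chosen in round 2 they numbered 845, with medians of 0.884 in PHF8 cells and 1.1 in Mock cells in round 1, and 69.6% lower in PHF8. Genes were also chosen in PHF8 cells. Of the 466 genes 2-fold up there at 72 h in round 1, 70.2% rose less in PHF8 cells in round 2, with medians of 1.47 in PHF8 cells and 1.68 in Mock cells. Of the 621 chosen in round 2, 67.3% rose less in PHF8 cells in round 1, with medians of 1.06 in PHF8 cells and 1.29 in Mock cells. Among all 13564 genes the difference of response at 72 h was negative in 52.3% in round 2 and in 50.8% in round 1.

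Genes that fell were read in the same way. Of the 480 genes 2-fold down in Mock cells at 72 h in round 1, 68.5% fell less in PHF8 cells in round 2 (median -1.2 in PHF8 and -1.39 in Mock cells), and of the 558 chosen in round 2, 63.4% fell less in PHF8 in round 1 (median -0.989 in PHF8 and -1.18 in Mock cells). Chosen in PHF8 cells, the share was 59.3% in either round. Of all 13564 genes, the difference of response at 72 h was positive in 47.6% in round 2 and 49.2% in round 1. By another measure, the response of all genes at 72 h was nearer to 0 in PHF8 cells in 58.3% in round 2 and 55.3% in round 1. At 24 and 48 h the median difference was towards a smaller response in PHF8 in every reading too, from 0.0409 to 0.3 in size. All 24 readings share the untreated libraries of the round that was read, and genes are not independent, so no test was made.

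**Figure D4:**
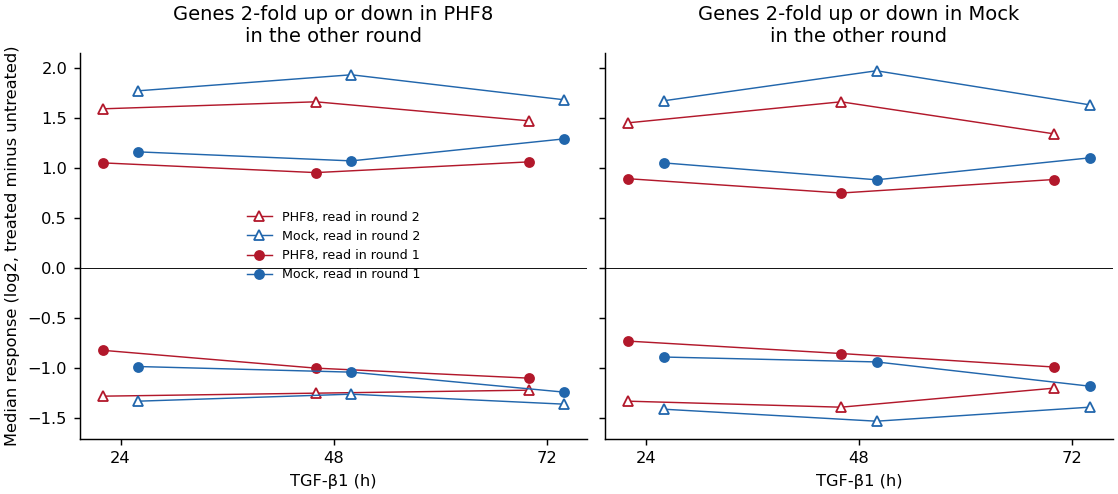
Median response to TGF-β1 (treated minus untreated, log2) in PHF8 cells (red) and Mock cells (blue) of genes that were 2-fold up or down in the other round, at 24, 48 and 72 h. The left panel shows genes chosen in PHF8 cells, the right panel genes chosen in Mock cells, triangles are values read in round 2, and each red median is nearer to 0 than the blue one beside it.

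The untreated gap was followed in the same way. The 335 genes 2-fold or more higher in untreated PHF8 than Mock cells in round 1 had, in round 2, median gaps of 0.145, 0.0815 and 0.136 at 24, 48 and 72 h of TGF-β1, and of 0.3 without it. The 69 such genes of round 2 had, in round 1, median gaps of 0.539, 0.493 and 0.448 with TGF-β1 and of 0.774 without. Of the 161 genes 2-fold lower in untreated PHF8 cells in round 1, the median gap in round 2 was -0.159, -0.121 and -0.227 with TGF-β1 and -0.231 without. Of the 33 such genes of round 2, it was -0.467, -0.226 and -0.408 with TGF-β1 and -0.585 without, in round 1. The stocks were closer under TGF-β1 than untreated in these 12 readings, by as little as -0.227 against -0.231. Genes chosen instead by a 2-fold gap under TGF-β1 gave the other order in 10 of 12 readings, with the stocks closer untreated. At 72 h the 70 genes higher in PHF8 cells in round 2 had, in round 1, a median gap of 0.797 with TGF-β1 and 0.608 without it, and the 55 lower ones -0.706 with it and -0.185 without. In all but 2 of the 24 readings the order thus followed the condition in which the genes were chosen, and these readings show no general narrowing of the gap.

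Gene lists were read by their medians and by how many members had the same sign in both rounds, beside all genes tested, whose median difference of response was -0.00249, with 28.3% positive and 29% negative in both rounds. Since the lists were chosen with earlier results of these data known, these counts are descriptions. None of the lists held a gene called with 1 mean per group, where the share of all genes tested was 0%. With all round terms that share was 0.229% in the mean, and calls within lists stand beside it.

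EMT transcription factors had a median of -0.18, and 11 of 17 tested were negative in both rounds, 0 positive. SNAI1, the Snail repressor, had 7.28 to 9.09 in treated PHF8 cells and 5.62 and 5.22 in untreated ones, against 7.45 to 9.25 in treated and 4.14 and 4.76 in untreated Mock cells. Its difference was -1.58 in round 1 and -0.69 in round 2 (mean -1.14 ± 0.80, adjusted p = 0.9999, and 0.0894 with all round terms). SNAI1 rose in PHF8 cells at 24 h (3.05, adjusted p = 0.0181) and 48 h (2.54, adjusted p = 0.0352), with 2.25 at 72 h (adjusted p = 0.0675), and in Mock cells at all 3 times (3.91, 3.90 and 3.44, the last with adjusted p = 0.0076). ZEB1 differed by -0.45 ± 0.68, TWIST1 by -0.19 and ZEB2 by -0.18, and SNAI2, the Slug repressor, by -0.01 ± 0.23. With 1 mean per group and without the untreated PHF8 library of round 1, the difference was positive in ZEB1 (0.38), ZEB2 (1.08), TWIST1 (0.12) and SNAI2 (0.17). That fit then sets a group of round 2 alone against groups of both rounds. With all round terms and 1 library left out, ZEB1 ran from -0.57 to -0.33 and ZEB2 from -0.26 to -0.10. TWIST1 ran from -0.26 to -0.11 and SNAI2 from -0.027 to 0.0094. RUNX2 and HMGA2 were also negative in both rounds.

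Mesenchymal and contractile genes had a median of -0.13, with 12 of 19 negative and 3 positive in both rounds, and CDH2 and COBL were the 2 called with all round terms, in opposite directions. VIM, the vimentin gene, had 15.30 to 15.73 in treated PHF8 cells and 14.96 and 14.42 in untreated ones, against 15.41 to 15.66 in treated and 14.58 and 13.92 in untreated Mock cells. Its difference was -0.48 ± 0.27 and its 6 values were all negative. CDH11, another mesenchymal cadherin, differed by -0.97 in round 1 and -0.79 in round 2, and NES, an intermediate filament gene, by -0.53 and -0.79. FN1, with 14.54 and 12.45 in untreated PHF8 and 14.15 and 12.06 in untreated Mock cells, differed by 0.03 in round 1 and -0.42 in round 2.

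Direct SMAD targets had a median of -0.17, with 14 of 28 negative and 5 positive in both rounds and 11 with all 6 values negative. SMAD6, an inhibitory SMAD, had 4.32 to 5.86 in treated PHF8 cells and 5.63 and 4.30 in untreated ones, against 4.93 to 5.67 in treated and 3.83 and 3.81 in untreated Mock cells. It differed by -1.42 in round 1 and -1.05 in round 2 (adjusted p = 0.0704 with all round terms). NEDD9, a scaffold protein of focal adhesions, differed by -0.59 and SKIL, a negative regulator of SMADs, by -0.40. SMAD7 differed by 0.12 ± 0.28 and rose by 1.96 in PHF8 cells and by 2.02 in Mock cells at 72 h. ID1, a helix-loop-helix inhibitor, differed by -0.34.

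Among extracellular matrix genes 12 of 28 were negative and 2 positive in both rounds (median -0.16, but -0.0381 with quantile normalisation), and FBN1 and TGM2 were called with all round terms. COL1A2, a chain of type I collagen, had 3.05 to 5.00 in treated PHF8 cells and 2.23 and 2.33 in untreated ones, against 2.46 to 2.95 in treated and 2.13 and 2.09 in untreated Mock cells. It reached the limit for entering the test only in 4 treated PHF8 libraries, so its difference of response is not given. Integrins had a median of -0.18, with 7 of 13 negative and 1 positive in both rounds. ITGB4, a subunit of the hemidesmosome integrin, differed by -1.03 in round 1 and -0.50 in round 2 (adjusted p = 0.0565 with all round terms). TGF-β ligands, receptors and SMADs had a median of -0.13, with 14 of 28 negative and 5 positive. TGFB1, which encodes the ligand itself, differed by -0.55 in round 1 and -0.45 in round 2. Of 18 YAP and TAZ targets 9 were negative and 0 positive (median -0.09).

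Beside these groups, 4 of 10 fibroblast markers passed the filter, and the log2 of their summed level lay at 12.76 to 13 in PHF8 cells at 72 h and 10.11 to 12.6 in untreated ones, against 12.48 to 12.81 at 72 h and 9.744 to 11.05 untreated in Mock cells. The 4 tested of 11 endothelial and blood markers summed to 7.266 to 7.404 in PHF8 cells at 72 h and 9.515 to 9.839 in untreated ones, against 7.011 to 7.517 at 72 h and 8.663 to 8.979 untreated in Mock cells. COL1A2 is on both the matrix and the fibroblast list, and the part of such markers in the differences was not tested.

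**Figure D5:**
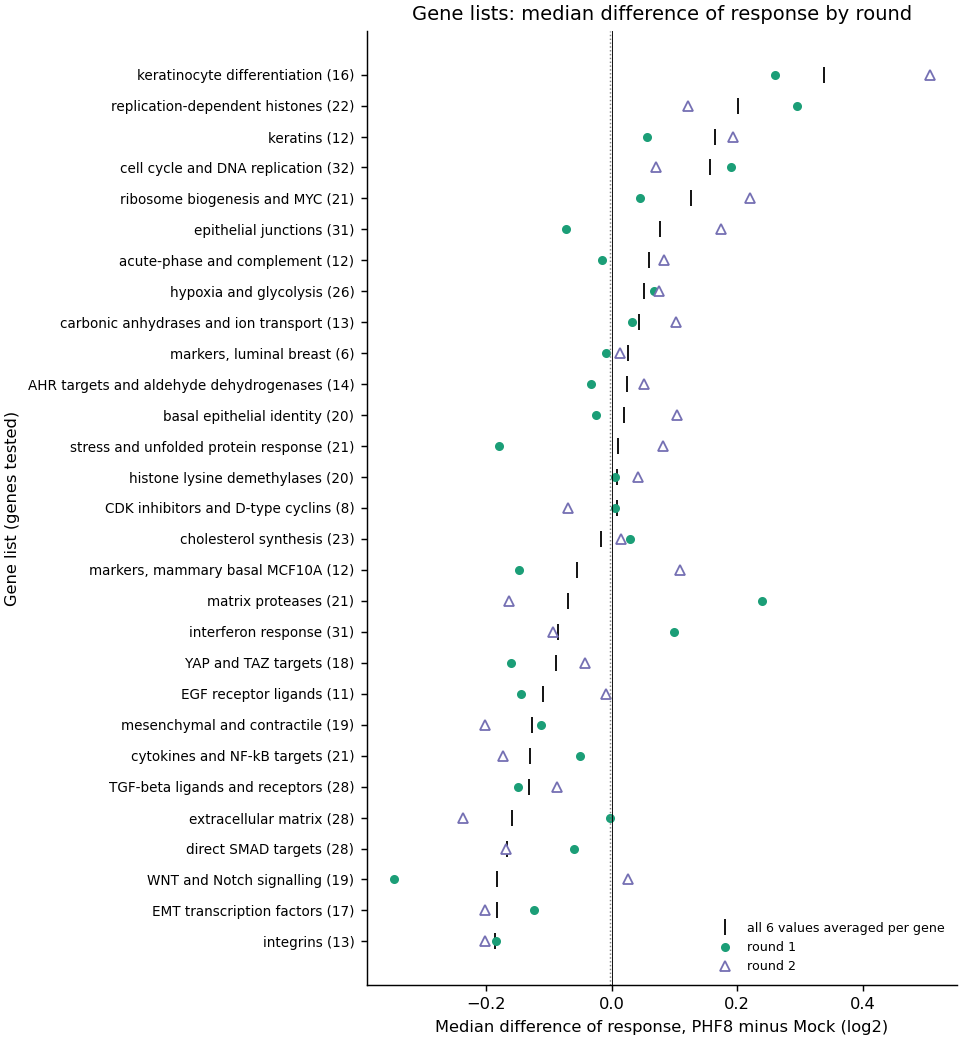
Median difference of response (PHF8 minus Mock, log2) of each gene list, with the number of genes tested in parentheses, for the mean of all 6 values (bar), round 1 (circle) and round 2 (triangle). EMT transcription factors, integrins and direct SMAD targets lie below 0 in both rounds, keratinocyte differentiation and replication-dependent histones above 0, and epithelial junctions on opposite sides in the 2 rounds.

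Junction genes had a median of 0.08, with -0.07 in round 1 and 0.17 in round 2, and 13 of 31 were positive, 7 negative and 11 of differing sign in the 2 rounds. CDH1, the E-cadherin gene, had 8.50 and 11.12 in PHF8 cells at 72 h and 10.22 and 11.38 in untreated ones, against 10.09 and 10.83 at 72 h and 11.45 and 11.57 untreated in Mock cells. In round 1 PHF8 libraries were lower than Mock libraries at every time. The difference of response of CDH1 was -0.29 in round 1 and 0.44 in round 2 (mean 0.07 ± 1.00). EPCAM, an epithelial adhesion molecule, was positive in all 6 values (0.53 in round 1 and 1.00 in round 2) and OCLN, a tight junction protein, as well (0.41 and 1.04).

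Keratinocyte differentiation genes had the highest list median, 0.34, with 9 of 16 positive and 2 negative in both rounds. SPRR1B was the member called with all round terms. The kallikreins KLK7 (mean 1.09) and KLK10 (0.95) and SCEL, the sciellin gene (0.72), were positive in all 6 values. IVL, the involucrin gene, went the other way with -0.65 and -1.45, and rose by 2.86 in Mock cells at 72 h (adjusted p = 0.0202), with 1.75 in PHF8 cells (adjusted p = 0.157). Of 12 keratins 7 were positive and 3 negative (median 0.165).

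Cell cycle and DNA replication genes were positive in both rounds in 19 of 32 and negative in 0, with a median of 0.16 that reversed by time. It was -0.20 at 24 h, 0.34 at 48 h and 0.25 at 72 h, and by round it was -0.349, 0.489 and 0.396 in round 1 and 0.00863, 0.12 and 0.0446 in round 2. Replication-dependent histones were positive in 15 of 22 (median 0.20) and ribosome biogenesis genes in 14 of 21 (median 0.13), with 0 negative in either list. No gene of these 3 lists was called in either fit. Of all genes tested, 0% were called with 1 mean per group and 0.229% in the mean with all round terms. At these shares, lists of this size say nothing by holding no called gene. Histone transcripts mostly lack poly(A) tails, and the libraries were made from total RNA with ribosomal RNA removed.

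The genes with the most extreme values that kept their sign in all 6 included several at low levels. MYBPC1, a myosin-binding protein of slow muscle, had 1.45 to 3.45 in treated PHF8 cells and 6.29 and 3.76 in untreated ones, while all 8 Mock libraries lay between 1.41 and 2.13. MYBPC1 reached the limit for entering the test only in 3 PHF8 libraries, so its difference of response is not given. SDC2, a heparan sulfate proteoglycan, differed by -1.19, and RGS11, a regulator of G-protein signalling, by -1.28, with levels of 3.46 to 4.27 in PHF8 and 2.87 to 4.76 in Mock libraries. On the positive side CCNA1, cyclin A1, had 5.89 and 5.86 in PHF8 cells at 72 h and 8.26 and 8.69 in untreated ones, against 5.03 and 4.43 at 72 h and 8.29 and 8.71 untreated in Mock cells. CCNA1 thus started alike in both stocks and was lower in Mock cells at each treated time. Its difference was 1.12 ± 0.47 with 1 mean per group and 1.12 ± 0.25 with all round terms (limma, adjusted p = 0.121 in the latter). It was called in neither fit. PHACTR3, a regulator of protein phosphatase 1 and actin, had 2.02 to 3.76 in treated PHF8 cells and 3.29 and 4.33 in untreated ones. In Mock cells it had 1.97 to 2.58 treated and 4.40 and 5.28 untreated. All treated Mock levels of PHACTR3 lay below the limit for entering the test, so its difference of response is not given. PHACTR3 was not called.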

How the data were processed

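RNA sequencing of 16 libraries was used from the deposited table of log2 expression per gene. Per the submitters' processing notes, reads were aligned to hg19 with TopHat2 2.0.13, counted with featureCounts of Subread 1.4.6 and passed to DESeq2. The deposited log2 values are on the scale of normalised reads, and the transformation is not given in the sources used here. Its effect on fold differences of weakly expressed genes was not tested. Read depth is unknown, and no counting interval is given. The library kit was stranded, per the labels. Entries with symbols turned into dates (28) and those below the filter (9776) were left out, and 4 columns of values that match no sample were not used.

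Differences of response were tested with limma 3.58.1 in R 4.3.3, with a mean-variance trend, over 13564 genes, with 1 mean per group (8 residual degrees of freedom) and p-values adjusted by Benjamini-Hochberg within each comparison. No pseudocount was added. SEs are those of the model. Alternatives were a replicate block for the round (7 degrees of freedom), with a round-by-stock term (6) and with round-by-time terms as well (3, called "all round terms"), other filters and scalings, no trend, and leaving out each library. The choice of genes by their gap under TGF-β1 was added after seeing the data. The labels say that the replicate number marks the sequencing round, and across 28 pairs of groups the deviations of round 1 libraries from the mean of their group had correlations of 0.206 to 0.749 (median 0.461), so the numbers pair the samples. The scripts were tested on simulated data.

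The genes and lists were chosen with earlier results of these data known. Named by rule were the 12 positive and 12 negative genes with the largest smaller-of-the-2-rounds mean among those with 6 values of the same sign, 15 readouts, and in each list the member with the largest mean whose 6 values shared a sign. The 31 genes called with all round terms, and CDH11, NES, NEDD9, SKIL, TGFB1, RUNX2, HMGA2, KLK7, KLK10, SCEL, IVL and OCLN, were chosen for naming with their values in view. The 32 gene lists held 623 symbols, of which 538 were tested. Some items covered by the counts are not reported here. Promoters are those of the RefSeq table of GRCh38.p14.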

Additional observations from a re-analysis of the deposited data

Results flagged for a closer look

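Of the 76 genes named or called, 3 had responses of opposite sign in the 2 stocks in all 6 pairs of round and time, and the test of the difference passed in none of them. SFMBT2, a Polycomb-type protein, was higher with TGF-β1 in PHF8 cells (0.43 to 0.71) and lower in Mock cells (-0.50 to -0.12). Its difference of response was 0.96 (limma, adjusted p = 0.9999 with 1 mean per group and 0.0967 with all round terms). ST6GALNAC5, a sialyltransferase, changed by 0.37 to 0.77 in PHF8 cells and by -0.94 to -0.07 in Mock cells. It differed by 0.98 (adjusted p = 0.9999 and 0.303). ZNF93, a zinc finger protein, changed by 0.15 to 0.98 in PHF8 cells and by -0.89 to -0.11 in Mock cells, and differed by 1.00 (adjusted p = 0.9999 and 0.184). All 3 were among the genes chosen for 6 values of the same sign, which favours such a pattern, and ST6GALNAC5 had levels of 2.57 to 3.82, close to the limit for entering the test.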

How the results depend on the processing

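With 1 mean per group, the 5 tests of the difference of response gave 0 calls under both other filters (16240 and 11118 genes), both other scalings, no trend, a fit over 4 groups only and each library left out. The replicate block, alone or with a round-by-stock term, changed none of these 0 counts. With the round-by-stock and round-by-time terms the counts were 2, 5, 7, 4 (joint) and 31 (mean). Combined with these terms, no filter gave 2, 5, 9, 4 and 48, the stricter filter 2, 2, 7, 3 and 16, quantile normalisation 3, 3, 7, 5 and 25, centring 2, 4, 7, 5 and 11, and no trend 0 in all 5; these combinations and the next ranges were chosen after seeing the data. Leaving out 1 library gave 0 to 13, 0 to 40, 0 to 48, 0 to 236 and 0 to 94. The counts of genes that responded at 72 h were 1273 in PHF8 and 1948 in Mock cells, and 3174 and 4272 with the block, 4065 and 5072 with the round-by-stock term, and 5261 and 6125 with all round terms. Without 1 library they were 394 to 1267 and 619 to 1957, and they moved by over 1.5 times without PHF8 72 h replicate 1 (469) or 2 (552) or PHF8 untreated replicate 2 (394), and without Mock 72 h replicate 1 (850) or 2 (840) or Mock untreated replicate 2 (619).

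The median differences of genes chosen by size, averaged over the 2 rounds, kept their signs throughout. For genes 4-fold up in PHF8 they were -0.179 (24 h) and -0.258 (72 h), 4-fold down 0.265, 0.115 and 0.227 (24, 48 and 72 h). For genes 4-fold up in Mock they were -0.235 and -0.403 (24 and 72 h), 4-fold down 0.419, 0.256 and 0.426. The 2-fold values at 24 h up in PHF8 (-0.136) were -0.141, -0.119 and -0.104 with the stricter filter, quantile normalisation and centring. At 72 h those down in Mock (0.213) were 0.206 and 0.222 with the stricter filter and centring, and those up (-0.261) were -0.248 and -0.247 with quantile normalisation and centring, as -0.134 at 24 h with centring. For genes higher in untreated PHF8 cells, no filter gave -0.144 and -0.256 (24 and 48 h), the stricter filter -0.187 and -0.278, quantile normalisation -0.0894 (24 h), centring -0.0626 and -0.216, and a 1.5-fold choice -0.169 and -0.176 (48 and 72 h). For genes lower there, the stricter filter gave 0.347, 0.51 and 0.368, and at 72 h no filter gave 0.045, quantile normalisation 0.0923 and centring 0.0864, while the 1.5-fold choice gave 0.0184 (48 h) and 0.0534 (72 h).

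The mean difference of single genes kept its sign in 1180 of the 1216 values with 1 library left out. It changed sign in CDH1 (-0.51 to 0.65), DKK1 (-1.85 to 0.54), EDN2 (-4.50 to 0.36), FBN1 (-1.60 to 0.33), FN1 (-1.24 to 0.85), KCNJ15 (-1.22 to 0.06004), MMP9 (-0.0463 to 1.38), NOP56 (-0.00271 to 0.54), SERPINE2 (-1.29 to 0.19), SMAD7 (-0.05803 to 0.29), SNAI2 (-0.22 to 0.20, and 0.0127 with centring), SPRR1B (-0.15 to 4.10), TWIST1 (-0.49 to 0.12), ZEB1 (-1.28 to 0.38) and ZEB2 (-1.44 to 1.08). The causes were not tested. The 2 libraries per group and the unknown depth limit all of these values.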
